A study of Homo sapiens with 5 samples.

Results

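PRSS2-high and PRSS2-zero SW480 cells from zebrafish xenografts at 4 dpi (days post-injection) were compared within each of 2 single-cell libraries. A cell was a well with more than 2000 detected genes and less than 25% of its UMIs (unique molecular identifiers, 1 per captured transcript) on mitochondrially encoded genes, and 291 of the 768 wells of 4 dpi passed. PRSS2-high cells were the top 20% of a library's cells by PRSS2 UMIs per 10000 UMIs, and PRSS2-zero cells had no PRSS2 UMI. This rule chose 58 high cells (26 in library 10 and 32 in library 11) and 155 zero cells (73 and 82), 213 of the 822 passing cells of the series, and 78 cells with intermediate PRSS2 (32 and 46) stayed out of both groups.

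SW480 is a human colorectal cancer line from a primary tumor, and the cells used here carried GFP from a lentiviral vector. They were injected into zebrafish larvae, whose immune defense at that age is innate. Tumors were dissected and pooled at 1 dpi, when clones are not yet thought to be lost, and at 4 dpi, after the period in which many cells are cleared. Single cells were then sorted into plates by FACS for SORT-seq, with 3 plates (libraries 6, 7 and 8) of 1 dpi and 2 plates (libraries 10 and 11) of 4 dpi. Both groups compared here were thus SW480 GFP cells of the same tumor pool, plates and day, and differed by rule only in their PRSS2 count. The labels do not say whether the plates of a day came from separate pools, so p-values measure only the spread between these library sums, which may be technical.

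PRSS2 encodes anionic trypsinogen, a secreted precursor that becomes the protease trypsin once its activation peptide is cut off. Pancreatic acinar cells make it in bulk together with cationic trypsinogen (PRSS1), Paneth cells of the gut also hold trypsinogens, and many tumors express them. Trypsins digest matrix proteins and cleave the receptor PAR2 (F2RL1), and are held in check by inhibitors such as SPINK1.

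The trypsinogen genes are near-copies of each other, which matters for counting reads. Over the whole coding sequence of 744 bases (GENCODE, GRCh38) PRSS1 and PRSS2 were 92.9% identical and PRSS2 and PRSS3 93.3%, and 9 of the 685 possible stretches of 60 bases (the length of a cDNA read) were the same in PRSS1 and PRSS2. A few sequencing errors could therefore move a read between the genes, and the sources used here do not say how reads that match several genes were treated.

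The promoters of PRSS2 and PRSS1 are shown because both genes were counted in the same cells. They run from 250 bases before to 50 after the start on the plus strand (RefSeq, GRCh38.p14), at chr7:142770720-142771019 for PRSS2 and chr7:142749222-142749521 for PRSS1. Capitals mark CACCTG on either strand (CAGGTG is its reverse complement) and TATAAA.
PRSS2 promoter: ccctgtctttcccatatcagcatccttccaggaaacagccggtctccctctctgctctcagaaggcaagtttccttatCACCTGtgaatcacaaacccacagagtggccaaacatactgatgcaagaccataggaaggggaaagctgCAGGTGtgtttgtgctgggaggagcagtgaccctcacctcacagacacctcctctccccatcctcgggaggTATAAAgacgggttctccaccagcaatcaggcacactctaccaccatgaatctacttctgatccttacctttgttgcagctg
PRSS1 promoter: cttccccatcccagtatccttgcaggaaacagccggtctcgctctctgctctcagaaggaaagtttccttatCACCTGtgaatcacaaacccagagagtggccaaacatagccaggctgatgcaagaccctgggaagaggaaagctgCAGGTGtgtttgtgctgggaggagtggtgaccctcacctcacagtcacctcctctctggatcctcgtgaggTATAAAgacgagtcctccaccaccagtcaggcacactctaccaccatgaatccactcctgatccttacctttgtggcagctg
Both hold 2 copies of the CACCTG motif and 1 TATAAA. Of 35116 promoters of this length, 20.6% hold CACCTG and 11.5% TATAAA on either strand, and a match describes letters only.

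PRSS2 counts chose the cells, so they are given without a test. The 58 high cells held 529 and 680 PRSS2 UMIs in libraries 10 and 11, which was 89.8% and 88.8% of all PRSS2 UMIs of the passing cells. A high cell had a median of 9 (range 1 to 110) PRSS2 UMIs in library 10 and of 9.5 (range 1 to 161) in library 11. The group was uneven within itself, since the 3 cells with most UMIs held 48.9% and 45.6% of the library's PRSS2. Relative to depth, the high cells had between 1.52 and 38 PRSS2 UMIs per 10000 in library 10 and between 1.65 and 52.9 in library 11. The last cell inside the limit had 1 PRSS2 UMI in each library (1.52 and 1.65 per 10000), and the first cell outside had 3 and 4 UMIs (1.38 and 1.61 per 10000). Single UMIs thus decided membership near the limit, where 2 high cells of library 10 and 1 of library 11 rested on 1 UMI. At 4 dpi 44.3% and 48.8% of passing cells had a PRSS2 UMI, against 8.81%, 7.04% and 6.17% in libraries 6, 7 and 8 of 1 dpi. One cell of library 8 held 71 of that library's 84 PRSS2 UMIs.

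**Figure D1:**
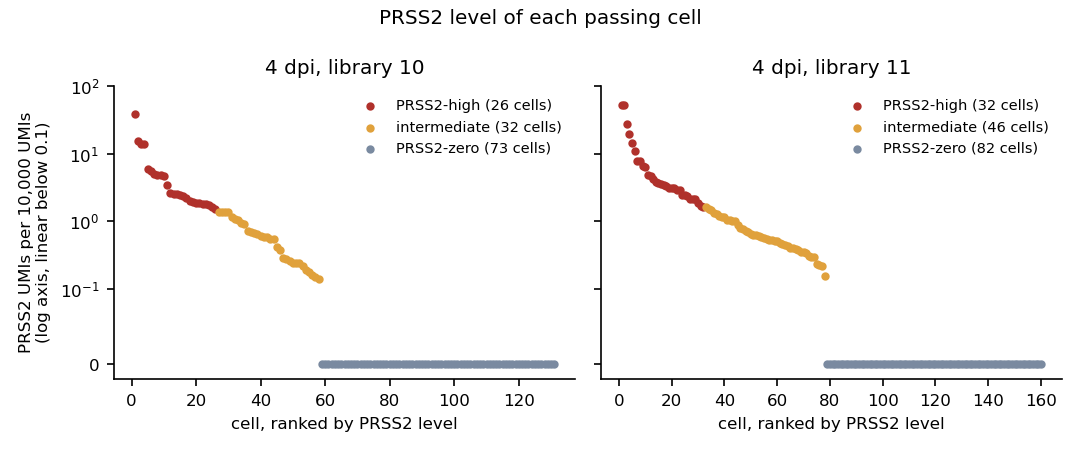
PRSS2 UMIs per 10000 UMIs of every passing cell of 4 dpi (y axis, logarithmic above 0.1 and linear below), with cells ranked from highest to lowest along the x axis in each library. Points are cells, red for PRSS2-high, orange for intermediate and gray for PRSS2-zero. The few highest values lie apart from each other (38, 15.2 and 13.9 in library 10, and 52.9, 52.6 and 27.8 in library 11), while around the limits of 1.52 and 1.65 the values fall without a gap, so the high group is a range and not a separate cluster.

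Before any gene is compared, the groups differed in depth and mitochondrial share. High cells had a median of 27394 and 21059 UMIs in libraries 10 and 11, and zero cells 23290 and 14267. The median mitochondrial share was 13.5% and 14.2% in high cells against 9.76% and 10.5% in zero cells. The intermediate cells were deeper than both groups (36352 and 27372 UMIs), and at 14.6% and 15% had a mitochondrial share like that of the high cells. A deeper cell is more likely to show 1 PRSS2 UMI, so depth entered the choice of the cells. Comparisons were therefore also made with zero cells matched to the high cells on UMIs or on mitochondrial share. All 5 libraries use the same 384 well barcodes, which name wells and not cells. No doublet caller was run, because wells were filled with 1 cell each by the sorter. Human genes of the 5 libraries held between 4487175 and 7632953 UMIs per library.

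The cells matched their label as an epithelial line. Of 6 epithelial and colon markers 5 were detected (CDX1 was at 0), and together they had 4410 and 4141 CPM (UMIs per 1000000 UMIs of the sum, PRSS2 left out) in zero cells and 5304 and 6582 in high cells. EPCAM, KRT8 and KRT18 made up most of this sum and were higher. CDX2 had 25 and 35 UMIs in zero cells and 4 and 5 in high cells, the other direction, and KRT19 had log2 ratios of -0.37 in library 10 and 0.32 in library 11. Markers of the cell types known for trypsinogen were nearly absent from both groups. The 9 acinar markers other than trypsinogen gave 0 and 3 UMIs in zero cells and 3 and 0 in high cells, with CELA3A, CTRB1, CTRC, PNLIP, AMY2A and PTF1A at 0. The 6 Paneth cell markers gave between 1 and 5 UMIs per sum, with DEFA5, DEFA6, REG3A and ITLN2 at 0. Hemoglobin gave between 1 and 9 UMIs per sum. The 5 leukocyte markers gave 20 and 8 UMIs in zero cells and 21 and 16 in high cells, with TYROBP at 0, and LAPTM5 gave 20 and 10 of the UMIs in high cells.

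UMIs were summed over the high and over the zero cells of each library, and the 4 sums were compared with library as a block in edgeR's quasi-likelihood test with Benjamini-Hochberg adjustment. Ratios are log2 of high over zero, with their standard error. Of 9819 genes tested, 686 were higher in PRSS2-high cells (6.99% of those tested) and 901 were lower (9.18%) at an adjusted p under 0.05. The median log2 ratio of all genes was 0.01, with -1.25 and 0.96 as the percentiles 5 and 95. All 1587 called genes had the same sign in both libraries, which was so for 72.3% of all genes tested. The test used these same 2 libraries, and a gene with opposite signs could hardly pass it, so this agreement follows from the selection. The number of calls rested on which zero cells were used. With zero cells matched on UMIs 408 genes were higher and 696 lower, while with zero cells matched on mitochondrial share only 56 of 8409 (0.666%) were higher and 166 (1.97%) lower, 2.64% in either direction. Of the 1471 called genes that could be tested in the latter, 1469 had the same sign, while most calls were lost. The high cells were unchanged and the matched zero cells are part of the same zero cells, so this agreement is not independent evidence of direction. DESeq2 called 96 genes higher and 149 lower, but it gave an adjusted p to only 4298 of the 9819 genes. In the DESeq2 counts of lists below, members without an adjusted p count as not called.

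**Figure D2:**
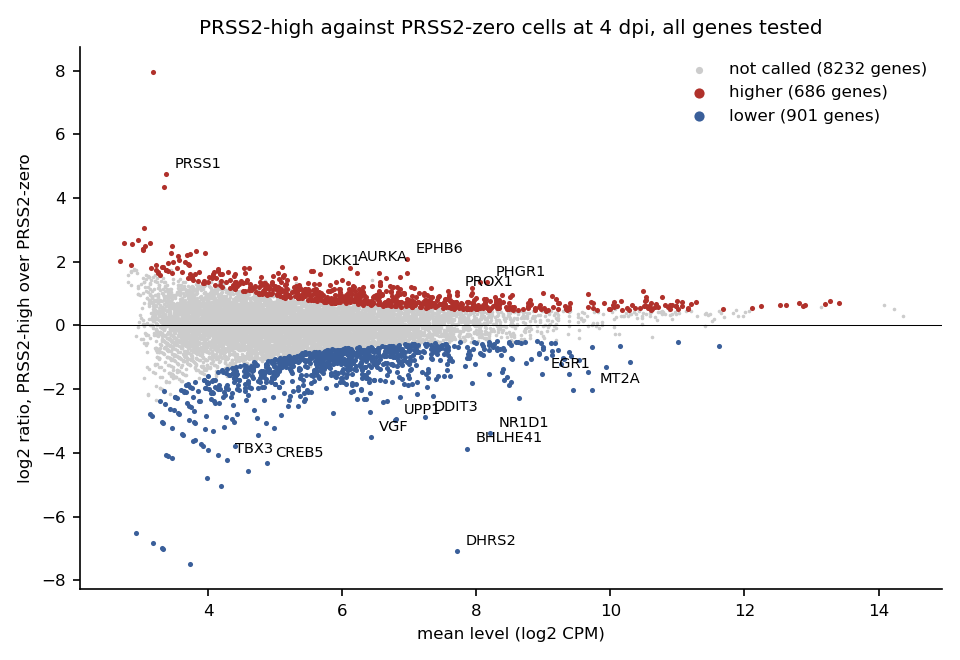
Log2 ratio of PRSS2-high over PRSS2-zero cells at 4 dpi (y axis) against the mean level of a gene in log2 CPM (x axis), with 1 point for each of the 9819 genes tested. Red marks the 686 genes called higher, blue the 901 called lower and light gray the rest. The falls reach farther from 0 than the rises at moderate levels, with DHRS2 (log2 ratio -7.09) well apart, while PRSS1 at the upper left rests on few UMIs.

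Among the secreted and membrane proteases that could be tested, PRSS1 was the 1 called. PRSS1 had 2 and 1 UMIs in the zero sums of libraries 10 and 11 and 12 and 26 in the high sums. The ratio of these counts, scaled to the sums, was 28 (95% exact interval 8.87 to 142, counting error only), and the log2 ratio in the test was 4.74 ± 0.64 (SE, adjusted p = 0.00061). The PRSS1 UMIs sat in few cells, with 14 UMIs in 4 cells of library 10 and 28 in 10 cells of library 11. Only 2 of 26 and 8 of 32 high cells had a PRSS1 UMI, against 2 of 73 and 1 of 82 zero cells. A single high cell held 7 of these UMIs in library 10 and 15 in library 11. PRSS1 was not among the DESeq2 calls (log2 ratio 4.86). The 3 cells with most PRSS2 held 35.7% and 60.7% of the PRSS1 UMIs, against 48.9% and 45.6% of the PRSS2 UMIs. The single cell with most PRSS2 (110 and 161 UMIs) had 5 and 1 PRSS1 UMIs. Since reads of these near-copies may be swapped, the PRSS1 count is uncertain and is not independent of the rule. PRSS3 (mesotrypsinogen) had 30.4 and 26.9 CPM in zero cells and 21.2 and 15.3 in high cells, a log2 ratio of -0.50 ± 0.35 that did not pass (adjusted p = 0.339). Of the 17 trypsinogens, kallikreins and other secreted serine proteases 6 could be tested, and PRSS1 was the member called. Over all genes tested, 6.99% were called higher and 9.18% lower. No call fell among the 4 tested membrane proteases and receptors, where F2RL1 had 24.7 and 19.2 CPM in zero cells and 11.2 and 11.5 in high cells (log2 ratio -0.80 ± 0.41, adjusted p = 0.202). SPINK1, the trypsin inhibitor, had too few UMIs to test. Of 14 tested protease inhibitors CST3 (cystatin C) was higher and 3 were lower, SERPINE2 and SERPINA1 among them. With zero cells matched on mitochondrial share 0 of 13 were higher and 0 lower. SERPINE2, which encodes the protease inhibitor nexin, had 29 and 23 UMIs in zero cells and 2 and 1 in high cells, so its level was 7.85 times as high in zero cells (interval 2.54 to 39.3).

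The rise with the smallest adjusted p among the named genes was that of EPHB6, an ephrin receptor without kinase activity. EPHB6 had 57.7, 97.1 and 196 CPM in the zero, intermediate and high cells of library 10 and 48.7, 127 and 212 in those of library 11. The level of these sums climbed from zero through intermediate to high in both libraries. The log2 ratio was 2.08 ± 0.20 (SE, adjusted p = 4.23e-05), and 1.73 (adjusted p = 0.000513) with zero cells matched on mitochondrial share. EPHB6 was spread over the group, with a UMI in 88.5% and 87.5% of high cells against 43.8% and 46.3% of zero cells. With every cell thinned to 10000 UMIs (shallower cells left out) these shares were 79.2% and 70.4% against 31.7% and 35.1%.

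The few tested markers of absorptive colonocytes and goblet cells, namely PHGR1, VIL1 and TFF3, were also higher. PHGR1, a small protein of the intestinal lining with no settled role, had 154, 177 and 390 CPM in the zero, intermediate and high cells of library 10 and 190, 175 and 399 in those of library 11. Here the intermediate cells stayed at the level of the zero cells, and only the high cells stood apart (log2 ratio 1.36 ± 0.16, adjusted p = 0.000184). TFF3, a trefoil peptide secreted by goblet cells, had 76.8, 103 and 154 CPM in library 10 and 64.1, 109 and 139 in library 11 (log2 ratio 1.21 ± 0.19, adjusted p = 0.00158). VIL1, the actin-bundling villin of the brush border, had 14.4, 18.9 and 32.4 CPM in library 10 and 8.97, 31.9 and 43.4 in library 11 (log2 ratio 1.82 ± 0.38, adjusted p = 0.00733). Most markers of these cell types were too low to test: PHGR1 and VIL1 were the 2 tested members of 14 absorptive colonocyte markers, and TFF3 the 1 tested of 12 goblet cell markers. With zero cells matched on mitochondrial share TFF3 was not called (log2 ratio 0.94), and 1 of the 2 colonocyte markers was. Of 12 Paneth cell markers 3 could be tested and 0 were called. Of 11 enteroendocrine markers 3 could be tested, where PROX1 was higher and CHGB lower (log2 ratio -2.36). CDX2, the homeobox factor of intestinal identity, was below 0 in both libraries and did not pass (log2 ratio -1.45 ± 0.51, adjusted p = 0.0671). KRT8 (1764 and 1571 CPM in zero cells, 2271 and 2776 in high cells) and KRT18, the keratins of simple epithelia, were higher by 0.74 ± 0.17 and 0.71 ± 0.17 on the log2 scale (adjusted p = 0.0125 and 0.0145). Of 15 tested keratins and S100 proteins these and S100A4 were higher and KRT80 was lower. The list counts of this paragraph stand against 6.99% of all genes called higher and 9.18% called lower.

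Part of the Wnt target and stem cell genes were higher. Of 18 tested, 8 were higher (DKK1, PROX1, NKD1, AXIN2, SOX4, APCDD1, ASCL2 and NOTUM) and 0 lower, against the 6.99% of all genes called higher, and the median log2 ratio of the list was 0.59, with 4 members below 0. DKK1, a secreted Wnt antagonist that Wnt signaling induces, had 29.9, 55.9 and 90.9 CPM in the zero, intermediate and high cells of library 10 and 20.5, 42.9 and 58.8 in those of library 11 (log2 ratio 1.71 ± 0.24, adjusted p = 0.000844). AXIN2, the feedback inhibitor of the pathway, had 127, 193 and 219 CPM and 130, 175 and 212 CPM (log2 ratio 0.90 ± 0.17, adjusted p = 0.00419). PROX1, a homeobox factor known as a Wnt target in colon tumors, had 157, 224 and 274 CPM and 132, 337 and 266 CPM (log2 ratio 1.05 ± 0.17, adjusted p = 0.00154). All of these were already higher in intermediate than in zero cells. LGR5, the classic stem cell receptor, had 20 and 21 UMIs in zero cells and 13 and 9 in high cells and did not pass (log2 ratio 0.38 ± 0.45, adjusted p = 0.6). Summed over the list, the median cell had 20.6 UMIs per 10000 in zero and 29.4 in high cells of library 10, and 21.7 and 28.8 in library 11. With zero cells matched on mitochondrial share the list's median was 0.41 and DKK1 was the 1 gene still called among 17 (log2 ratio 2.03, adjusted p = 0.00216).

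**Figure D3:**
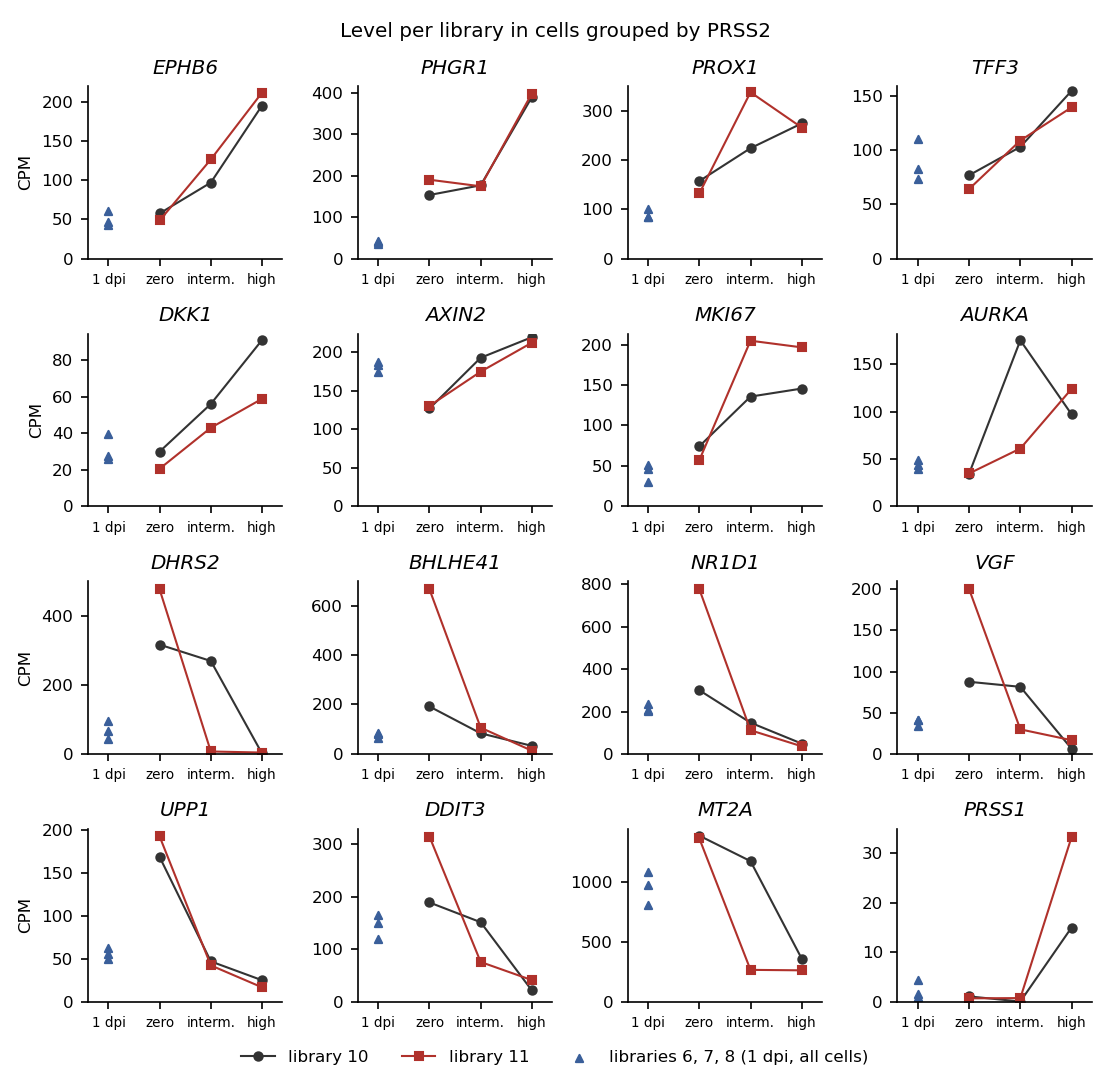
Level in CPM (y axes, each from 0) of 16 genes in the summed zero, intermediate and high cells of library 10 (black circles) and library 11 (red squares), and in all passing cells of libraries 6, 7 and 8 of 1 dpi (blue triangles). Lines join sums of the same library. EPHB6, DKK1 and TFF3 climb through the 3 groups, PHGR1 rises in the high cells alone, and NR1D1 and UPP1 drop between zero and intermediate cells.

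G2 and mitosis genes were higher in the sums of PRSS2-high cells, but a few cells carried much of the rise. Of 52 tested, 27 were higher and 0 lower, against the 6.99% of all genes called higher, with a median log2 ratio of 0.94. The count was 10 of 50 with zero cells matched on mitochondrial share, 4 of 47 with cells thinned to 10000 UMIs and 5 of 52 with DESeq2. AURKA, the kinase of the spindle poles, had 34.5 and 34.6 CPM in the zero cells of libraries 10 and 11, 175 and 60.9 in the intermediate and 97.1 and 124 in the high cells (log2 ratio 1.81 ± 0.22, adjusted p = 0.000254). MKI67, the proliferation marker, had 74.2 and 57.1 CPM in zero cells, 136 and 205 in intermediate and 146 and 197 in high cells (log2 ratio 1.52 ± 0.22, adjusted p = 0.00096). CCNA2, the cyclin of S phase and G2, had 39.2 and 41 CPM in zero cells, 103 and 81 in intermediate and 89.7 and 141 in high cells (log2 ratio 1.64 ± 0.23, adjusted p = 0.000707). Both non-zero groups were above the zero cells for each of these genes, but 1 intermediate cell held 49.1% of the mitosis UMIs of its sum in library 10 and 16.1% in library 11. The sums hid an uneven spread over cells: 1 cell held 23.2% of the mitosis UMIs of the high cells of library 10, and 1 cell held 42.1% in library 11, where 3 cells held 65.1%. The median cell differed less, with 17.3 mitosis UMIs per 10000 in zero and 21.3 in high cells of library 10, and 16.6 and 18.8 in library 11. Without the cell with most mitosis UMIs in each sum, 16 genes of the list were higher and 1 lower, with a median of 0.48. AURKA then still passed (log2 ratio 1.31, adjusted p = 0.000864), while KIF20A, a mitotic kinesin, went from 1.67 ± 0.39 (adjusted p = 0.013) to 0.95 (adjusted p = 0.148). With every cell thinned to 10000 UMIs, AURKA had a UMI in 29.2% of high and 12.7% of zero cells of library 10. In library 11 these shares were alike, at 22.2% and 22.8%. For MKI67 they were 50% and 19% in library 10 and 33.3% and 24.6% in library 11. PLK1, BIRC5, KIF4A and GTSE1, all of which act in mitosis, were also among the 12 largest rises. Of 41 tested S phase genes 12 were higher, MCM5 of the replicative helicase among them (log2 ratio 1.16 ± 0.23), and 1 was lower, GMNN, the inhibitor of origin licensing (log2 ratio -0.78 ± 0.23). The rises of S phase genes were lost in other settings, with 0 of 39 higher with zero cells matched on mitochondrial share, and 1 of 41 with DESeq2 or with the top 10% of cells.

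Ribosomal protein and mitochondrially encoded genes were higher by small steps, 34 and 9 of them passing the test. Of 75 tested cytosolic ribosomal protein genes 34 were higher and 0 lower, against the 6.99% of all genes called higher, and their median log2 ratio was 0.46. RPL27A had 1800 and 1344 CPM in zero cells and 2351 and 2422 in high cells (log2 ratio 0.77 ± 0.17, adjusted p = 0.0106). Of 15 mitochondrially encoded genes 9 were higher (median 0.65), and MT-CO1, a subunit of cytochrome c oxidase, had 6095 and 5231 CPM in zero cells and 7671 and 9075 in high cells (log2 ratio 0.71 ± 0.20, adjusted p = 0.0262). These genes are the ones that count toward the mitochondrial share, and with zero cells matched on it the median of the mitochondrial list was 0.06 and that of the ribosomal list 0.29, with 0 calls in either by edgeR. Of 32 nuclear oxidative phosphorylation subunits 5 were higher (median 0.27), and 0 of 32 with zero cells so matched (median 0.09). Of the glycolytic enzymes GPI, PFKP, LDHA, GAPDH and TPI1 were higher, GAPDH with 6572 and 5937 CPM in zero cells and 8815 and 8693 in high cells (log2 ratio 0.64 ± 0.19, adjusted p = 0.033). Other members of that list of hypoxia and glycolysis genes, which are known to be induced by low oxygen, were lower, namely NDRG1, ADM, PFKFB3, VEGFA, SLC2A3 and ENO2, so that of 23 tested 5 were higher and 6 lower, against 0 and 1 of 21 with zero cells matched on mitochondrial share. Of 12 heat shock genes HSPA8, HSPE1 and HSPD1 were higher, and 0 of 12 were with zero cells so matched. Without the cell with most mitosis UMIs in each sum 3 of the list were higher and 5 lower.

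The largest fall among genes of at least 20 CPM was that of DHRS2, a short-chain dehydrogenase of mitochondria and nucleus. DHRS2 had 317 and 478 CPM in zero cells and 1.25 and 3.83 in high cells, which was 616 and 745 UMIs against 1 and 3. The log2 ratio was -7.09 ± 0.32 (adjusted p = 2.68e-08), and -6.26 (adjusted p = 8.48e-09) with zero cells matched on mitochondrial share. Few cells made up the level: 16 of 73 and 19 of 82 zero cells had a DHRS2 UMI, and 1 cell held 80.03% of the UMIs in library 10 and 31.8% in library 11. The intermediate cells had 270 CPM in library 10, where 1 cell held 321 of 328 DHRS2 UMIs, and 6.92 CPM in library 11. DHRS2-rich zero cells had a low mitochondrial share (median 7.01% and 6.30% in cells with at least 3 DHRS2 UMIs). Without every cell that had a DHRS2 UMI, 363 genes were higher and 462 lower in PRSS2-high cells.

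Other large falls, such as those of NR1D1, BHLHE41, VGF and UPP1, rested on more zero cells than that of DHRS2. NR1D1 (REV-ERBα), a nuclear receptor of the circadian clock, had 300, 147 and 48.6 CPM in the zero, intermediate and high cells of library 10 and 778, 111 and 35.8 in those of library 11 (log2 ratio -3.38 ± 0.30, adjusted p = 2.47e-05). An NR1D1 UMI was found in 67.1% and 67.1% of zero cells against 46.2% and 59.4% of high cells, a smaller difference than in the sums. BHLHE41 (DEC2), another clock repressor, had 192, 83.1 and 32.4 CPM and 665, 106 and 12.8 CPM (log2 ratio -3.87 ± 0.42, adjusted p = 0.000106). VGF, a secreted neuropeptide precursor, had 87.6, 81.5 and 6.23 CPM and 200, 29.8 and 16.6 CPM (log2 ratio -3.49 ± 0.28, adjusted p = 1.47e-05). For NR1D1, BHLHE41 and VGF the zero cells of library 11 were higher than those of library 10. UPP1, the uridine phosphorylase, had 169, 46.9 and 24.9 CPM and 193, 42.2 and 16.6 CPM (log2 ratio -2.96 ± 0.25, adjusted p = 2.07e-05). CREB5, LSMEM1, GULP1, ZNF77, ZNF555, GADD45B and DDIT3 complete the 12 largest falls, with log2 ratios from -4.32 to -2.87. CREB5 had 3 UMIs in the high cells and 153 in the zero cells, so its level was 23.1 times as high in zero cells (interval 7.76 to 113).

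Genes of the ATF4 pathway, which amino acid shortage and other stresses turn on, were lower as a group. Of 15 tested, 0 were higher and 10 lower (DDIT3, TRIB3, SESN2, DDIT4, SLC3A2, CHAC1, ATF4, ASNS, SLC7A11 and PHGDH), against 9.18% of all genes called lower. The median log2 ratio was -0.92, and each of the 15 was below 0. DDIT3 (CHOP), the transcription factor of prolonged stress, had 189, 151 and 21.2 CPM in library 10 and 315, 75.5 and 40.9 in library 11 (log2 ratio -2.87 ± 0.21, adjusted p = 1.18e-05). TRIB3, a pseudokinase induced by ATF4, had 468, 168 and 125 CPM and 876, 264 and 114 CPM (log2 ratio -2.28 ± 0.21, adjusted p = 4.23e-05). ATF4 itself had 952, 645 and 395 CPM and 1109, 577 and 482 CPM (log2 ratio -1.09 ± 0.15, adjusted p = 0.000707). The shift was seen in the median cell too, with 38 list UMIs per 10000 in zero against 21.1 in high cells of library 10 and 44.2 against 28 in library 11. With zero cells matched on mitochondrial share the median was -0.81 and 6 members were lower. Of 17 unfolded protein response genes 6 were lower and 0 higher (median -0.05). XBP1, a transcription factor of that response, had 208 and 301 CPM in zero cells and 76 and 75.4 in high cells (log2 ratio -1.57 ± 0.19, adjusted p = 0.000258). The chaperone HSP90B1, with 775 and 664 CPM in zero and 767 and 761 in high cells, did not pass (log2 ratio 0.24 ± 0.15, adjusted p = 0.292).

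**Figure D4:**
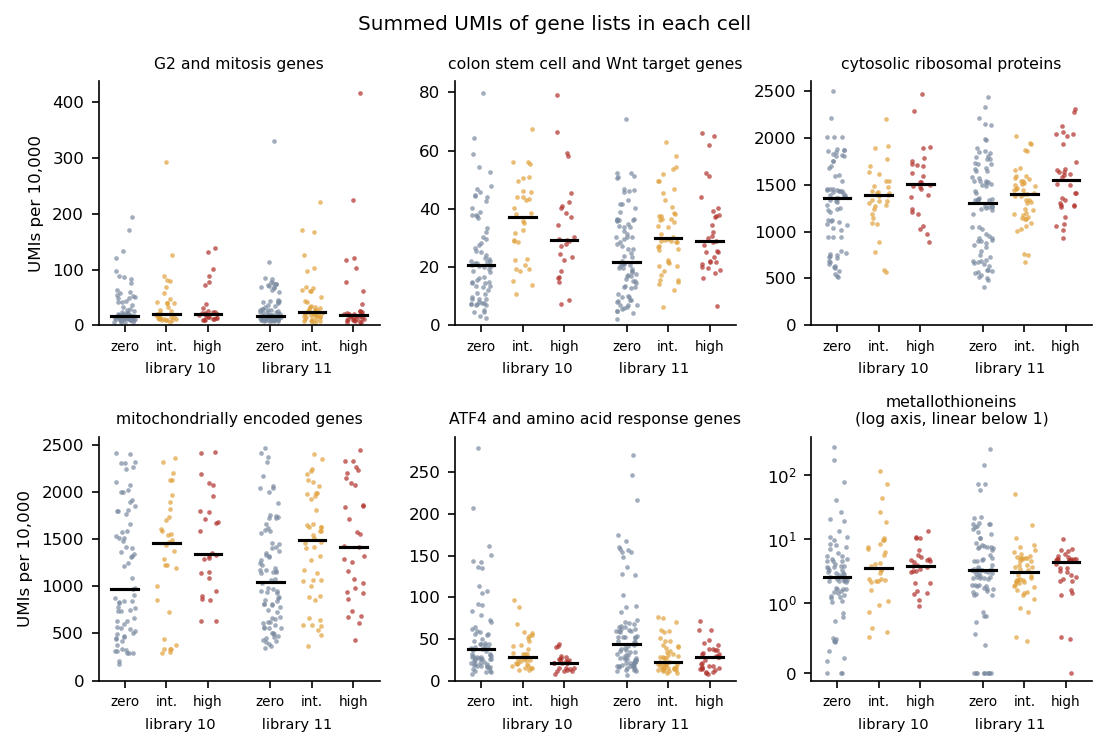
Summed UMIs per 10000 of 6 gene lists (y axes, the metallothionein axis logarithmic above 1) in every zero, intermediate (int.) and high cell of libraries 10 and 11. Points are cells and bars are medians. The ATF4 values of high cells lie low and close together (medians 21.1 and 28), whereas in the mitosis and metallothionein panels single cells tower over groups whose medians are near each other.

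Some other stress genes were lower in the sums. Of 10 tested p53 target genes GDF15, CDKN1A, BBC3 and TNFRSF10B were lower and 0 higher, against 9.18% of all genes called lower. With zero cells matched on mitochondrial share 2 of 8 were lower, and 1 of 10 with DESeq2. GDF15, a secreted stress cytokine, had 115 and 134 CPM in zero cells and 22.4 and 23 in high cells (log2 ratio -2.29 ± 0.25, adjusted p = 9.89e-05). Metallothioneins, which bind zinc and copper, were led by 1 cell per library. MT2A had 1386 and 1363 CPM in zero cells and 359 and 261 in high cells (log2 ratio -2.01 ± 0.16, adjusted p = 1.47e-05), and 4 of 4 tested genes of the list were lower. However, 1 zero cell held 57.4% of the list's UMIs in library 10 and 47.6% in library 11, and the median cell went the other way, with 2.53 per 10000 in zero and 3.81 in high cells of library 10 and 3.20 and 4.30 in library 11. Without the cell with most metallothionein UMIs in each sum MT2A had a log2 ratio of -1.17 (adjusted p = 0.00135) and MT1E went from -2.38 ± 0.25 (adjusted p = 8.52e-05) to -0.21 (adjusted p = 0.725).

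Immediate early genes, which growth factors and handling of cells induce within minutes, were lower in part. Of 20 tested, 8 were lower (EGR2, KLF2, EGR1, KLF4, FOSL1, IER2, ATF3 and JUND) and BTG2 was higher, against the 9.18% and 6.99% of all genes, with a median of -0.45. Most of these calls were lost in other settings, with 2 of 19 lower with zero cells matched on mitochondrial share, 1 of 19 with cells thinned to 10000 UMIs and 2 of 20 with DESeq2. EGR1 had 707 and 819 CPM in zero cells and 202 and 280 in high cells (log2 ratio -1.52 ± 0.16, adjusted p = 8.57e-05), and 1 cell held 65.1% and 41% of its UMIs in the zero sums. FOS had 294 and 358 CPM in zero cells and 374 and 259 in high cells, so the libraries differed in direction (log2 ratio 0.10 ± 0.18, adjusted p = 0.749). HES1, a repressor downstream of Notch, had 122 CPM in the zero cells of both libraries and 43.6 and 21.7 in high cells (log2 ratio -1.77 ± 0.26, adjusted p = 0.00102). It was the lower member of 9 tested Notch genes and HES6 the higher one.

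Genes known from contact with immune cells were called about as often as other genes, of which 16.2% were called in either direction. Of 11 tested MHC class I genes HLA-B and HLA-E were lower (HLA-B with 106 and 126 CPM in zero and 26.2 and 61.3 in high cells, log2 ratio -1.30 ± 0.26, adjusted p = 0.00592). Of 8 interferon-stimulated genes IRF7 and IRF1 were lower. Of 13 chemokines and NF-κB feedback genes CXCL2 was higher and CCL20 lower, both with over 60% of the UMIs of each high sum in 1 cell. CXCL1, which attracts neutrophils, had 17.5 and 31.4 CPM in zero cells and 97.1 and 20.4 in high cells, and did not pass (log2 ratio 1.32 ± 0.48, adjusted p = 0.0735). With zero cells matched on mitochondrial share it did (log2 ratio 2.35, adjusted p = 0.0161), although the libraries differed in direction. LAPTM5, a lysosomal protein best known from blood cells, had 10 and 5 UMIs in zero cells and 20 and 10 in high cells (log2 ratio 2.29 ± 0.50, adjusted p = 0.00916), in 11 and 8 high cells. PTPRC, the defining leukocyte gene, had 3 and 1 UMIs in zero cells and 0 and 1 in high cells. LCK, a lymphocyte kinase that colon cancer cells also express, had 29.4 and 19.9 CPM in zero cells and 61 and 85.6 in high cells (log2 ratio 1.70 ± 0.29, adjusted p = 0.00234).

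The remaining lists were divided or short, and their counts stand against 6.99% of all genes called higher and 9.18% called lower, so that 1 or 2 called members are no result about a list. Of 14 tested epithelial-mesenchymal genes ITGA6, TGFBI and EPCAM were higher and SNAI1 and SNAI2 lower. VIM, the mesenchymal intermediate filament, had 112 and 103 CPM in zero cells and 24.9 and 81.8 in high cells and did not pass (log2 ratio -0.94 ± 0.33, adjusted p = 0.0619), but did with zero cells matched on mitochondrial share (log2 ratio -1.17, adjusted p = 0.0288). Of 17 cholesterol synthesis genes IDI1, HMGCS1 and SC5D were lower, and of 5 YAP and TEAD targets AXL, LATS2 and AJUBA were lower and TEAD1 higher. Of 8 nuclear long non-coding RNAs SNHG12, SNHG1 and MALAT1 were lower, MALAT1 with 4105 and 3853 CPM in zero cells and 2256 and 2277 in high cells (log2 ratio -0.66 ± 0.16, adjusted p = 0.0171). Of 14 NRF2 and iron storage genes TXN was higher and OSGIN1 and SLC7A11 lower, and of 3 tested enteroendocrine markers PROX1 was higher and CHGB lower. Of 8 tested transcription factors of colon and pancreas TBX3 and KLF5 were lower. TBX3 had 37 and 58 UMIs in zero cells and 1 and 1 in high cells, so its level was 21.5 times as high in zero cells (interval 5.79 to 180). Of 6 tested genes that an earlier look at these libraries had picked as highest at 4 dpi, RCSD1, PHGR1, PROX1, PCDH19 and APCDD1 were higher, and both tested genes of the matching low list (HES1 and TRIM15) were lower. Those lists were chosen on these samples and give no independent evidence of direction.

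The libraries of 1 dpi took no part in the rule and offered the same kind of contrast. There 40 of 531 passing cells had a PRSS2 UMI (20, 10 and 10 in libraries 6, 7 and 8) and were compared with the 491 cells that had none. The detected cells held 43, 23 and 84 PRSS2 UMIs, and in each library they were deeper on average than the zero cells. Depth thus entered this choice too, and zero cells of 1 dpi were not matched on UMIs or mitochondrial share. In edgeR's quasi-likelihood test 0 of 11027 genes were higher (0%) and 30 lower (0.272%). At an unadjusted p under 0.05 there were 391 higher and 493 lower. DESeq2, which gave an adjusted p to 7606 genes, called 0 higher and 23 lower. Of the 686 genes higher at 4 dpi 671 were tested at 1 dpi, and 508 (75.7%) had a positive ratio there, against 51.2% of the 9738 genes tested at both times. Of the 901 lower genes 890 were tested and 687 (77.2%) had a negative ratio, against 48.8%. By name, 0 of the 671 were called higher at 1 dpi and 2 (ANLN and KIF14) were called lower, and 13 of the 890 were called lower at both times. EGR1, GADD45B, HES1, EGR2, CCL20, PPP1R15A and TIPARP were among these. GADD45B, a stress-induced growth arrest gene, had a log2 ratio of -2.95 ± 0.27 (adjusted p = 4.23e-05) at 4 dpi and of -1.65 (adjusted p = 0.0133) at 1 dpi.

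Whether the contrast itself differed between days was tested as an interaction, with cells that had at least 1 PRSS2 UMI against zero cells at both times. The zero cells were not matched on depth in this test. Of 11581 genes, 42 (0.363%) had a higher and 21 (0.181%) a lower ratio at 4 dpi, 0.544% in either direction. The mitosis genes made up 24 of the 42, with 0 of the list in the other direction. Their median log2 ratio was -0.82 at 1 dpi, where CKS2 and ANLN of 50 were called lower, against 0.85 in the same contrast at 4 dpi. AURKA had a log2 ratio of -1.21 (adjusted p = 0.101) at 1 dpi, and the interaction was 3.00 (adjusted p = 0.000375). At 1 dpi AURKA was lower in the detected cells of 3 of 3 libraries, with 22.7, 19.97 and 16.9 scaled CPM against 51.8, 42 and 45.1 in zero cells. ATF4 pathway genes had a median of 0.01 at 1 dpi with 0 of 16 called, and TRIB3, ASNS, SESN2, PHGDH and SLC3A2 had a lower ratio at 4 dpi in the interaction (TRIB3 by -1.56, adjusted p = 0.00358). Immediate early genes had a median of -1.13 at 1 dpi with 11 of 20 lower, and FOS and JUN had a higher ratio at 4 dpi. FOS had 521, 848 and 550 scaled CPM in zero cells of 1 dpi and 113, 300 and 33.7 in the detected cells (log2 ratio -2.26, adjusted p = 0.0003), and the interaction was 2.37 (adjusted p = 0.00266). EPHB6 and PHGR1 had positive ratios at 1 dpi that did not pass (0.83, adjusted p = 0.237, and 0.71, adjusted p = 0.429), and their interactions did not pass either (0.74, adjusted p = 0.467, and -0.01, adjusted p = 0.994). The interaction counts moved with single libraries, from 8 and 2 without library 6 to 66 and 85 without library 8.

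**Figure D5:**
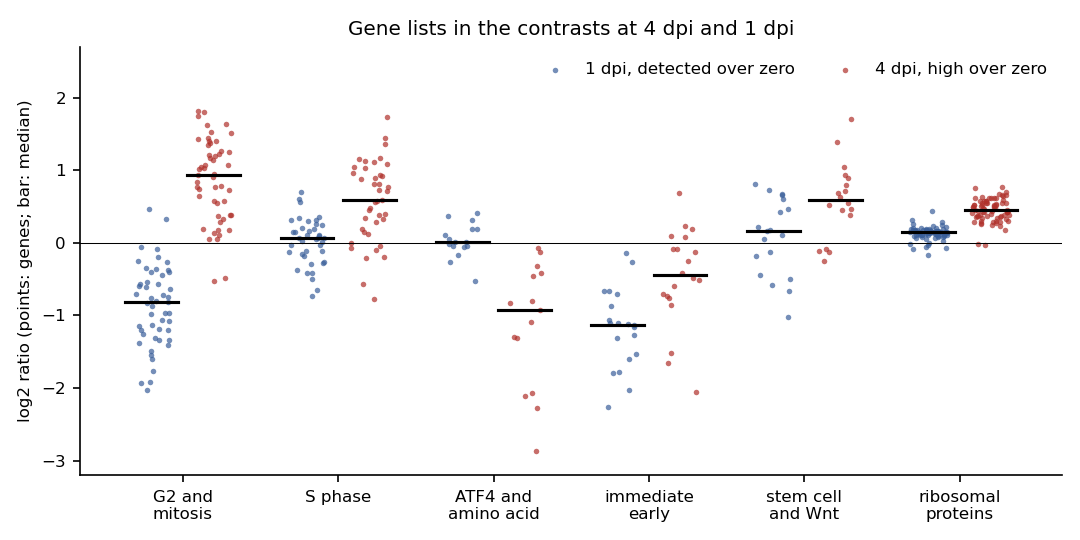
Log2 ratios of the genes of 6 lists (points; bars are medians) in cells with over those without PRSS2 at 1 dpi (blue) and in PRSS2-high over PRSS2-zero cells at 4 dpi (red). Mitosis genes lie below 0 at 1 dpi (median -0.82) and above it at 4 dpi (0.94), ATF4 pathway genes are centered on 0 at 1 dpi (0.01) and low at 4 dpi (-0.92), and immediate early genes are below 0 at both times (-1.13 and -0.45).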

How the data were processed

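Single SW480 cells of zebrafish xenografts were profiled by SORT-seq on 5 plates, each sequenced as 1 library (3 of 1 dpi, 2 of 4 dpi). The authors deposited unfiltered raw UMI counts for each human gene in each well. The submitters' processing notes name BWA and hg38, without versions. Each library was 1 sample, and groups came from the labels and the PRSS2 rule. Spike-in (ERCC) counts and PRSS2 were left out of totals and tests.

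The UMI counts were summed per library and group and tested in R 4.3.3 with edgeR 4.0.16 (limma 3.58.1): TMM normalization, filterByExpr, quasi-likelihood F test, two-sided, library as a block, Benjamini-Hochberg adjustment over all genes tested, threshold 0.05. DESeq2 1.42.0 was an alternative. On simulated counts with a log2 change of 1.5, 82.6% of changed genes were called in the 4 dpi design (9613 genes), 81.6% at 1 dpi (10845 genes) and 50.8% in the interaction (11386 genes). Summaries used Python 3.11.15 with numpy 2.4.6, pandas 2.3.3, scipy 1.17.1 and matplotlib 3.10.9. Levels are unscaled CPM except where called scaled (TMM).

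Named genes were the 12 largest rises and falls among called genes of at least 20 CPM, called or extreme members of 35 lists, a fixed set of trypsin, colon and cycle genes, and up to 10 genes called at both times. Members and lists were chosen with earlier results of these data known, so no p is adjusted over a list. NR1D2, DBP, HLF and the list of clock genes were named after their values were seen. The depth per library limits low genes: for genes with at most 3 UMIs in a group, exact 95% intervals of the ratio of counts are given, with a floor of 3 UMIs over a group where it had none, and both cover counting error only. Matched zero cells on mitochondrial share and sums without single cells were added after the data had been seen. The files name no coordinates. Sequences came from RefSeq and GENCODE. Some items are not reported here.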

Additional observations from a re-analysis of the deposited data

Results flagged for a closer look

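The contrast of PRSS2-detected with PRSS2-zero cells differed between 4 and 1 dpi by the interaction test for 42 genes with a higher and 21 with a lower log2 ratio at 4 dpi. Among the named genes the difference was positive for AURKA (3.00), CENPE (2.98), PLK1 (2.94), KIF4A (2.82), CCNA2 (2.55), FOS (2.37), ANLN (2.08), TOP2A (2.03), MKI67 (1.86), DKK1 (1.84) and AXIN2 (1.31). It was negative for SERPINE2 (-3.19), UPP1 (-2.42), BHLHE41 (-2.28), SESN2 (-1.91), MT1X (-1.67), XBP1 (-1.63), TRIB3 (-1.56), NR1D2 (-1.43), MALAT1 (-0.94) and ASNS (-0.93). The 1 dpi side of these differences rests on 40 cells with PRSS2 in 3 libraries.

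PRSS2 also appeared in wells that no comparison used. Wells of 4 dpi with more than 2000 genes but 25% or more mitochondrial UMIs held 42 PRSS2 UMIs in library 10 (12 of 26 wells, 46.2%) and 31 in library 11 (13 of 31 wells, 41.9%), shares close to the 44.3% and 48.8% of passing cells. At 1 dpi 0 of the 2, 3 and 2 such wells had one.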

How the results depend on the processing

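At 4 dpi, where 686 genes were higher and 901 lower, the counts were 96 and 149 with DESeq2 (only 4298 genes with an adjusted p), 138 and 326 with the top 10% of cells, 332 and 599 with every PRSS2-detected cell, 121 and 133 with cells thinned to 10000 UMIs, 408 and 696 with zero cells matched on UMIs, 56 and 166 matched on mitochondrial share, and 363 and 462 without DHRS2 cells. In 14 settings, these among them, 0 called genes were called in the opposite direction. All of these settings reuse cells of the same 2 libraries, so this is not independent evidence of direction. The other settings moved both counts by less than 1.5 times. Leaving out a library of 4 dpi left no test. The lists moved with mitosis-rich and metallothionein-rich cells as stated.
At 1 dpi (0 higher, 30 lower) the counts were 11 and 115 without a filter on low counts and 4 and 30 thinned, with 1 to 11 and 13 to 62 when 1 library was left out. For the interaction (42 and 21) they were 119 and 65 without the filter and 15 and 4 thinned, with 8 to 66 and 2 to 85 when 1 library was left out.
Libraries served as the replicate block. Without it 587 and 834 genes were called at 4 dpi and 0 and 1 at 1 dpi.
Of the named genes, those that changed sign had not passed the test: FOS (-0.34 with the top 10%, -0.031 with the top 30%, -0.42 under 15% mitochondrial UMIs, -0.47 matched on mitochondrial share, -0.038 without the 3 highest PRSS2 cells), LGR5 (-0.36 matched on UMIs, -0.67 under 15%) and PRSS3 (0.31 thinned). The cause was not tested. Depth limits genes of a few UMIs, where intervals are wide.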

Other observations

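Genes of the circadian clock were low in PRSS2-high cells beyond NR1D1 and BHLHE41. A list of 18 clock genes was drawn up after these values were seen, so it gets no test of its own. Of the 16 tested, 12 were lower and 0 higher at 4 dpi, against 9.18% of all genes called lower, and their median log2 ratio was -1.68. NR1D2, the partner of NR1D1, had 337 and 547 UMIs in zero cells and 40 and 37 in high cells (log2 ratio -2.21 ± 0.24, adjusted p = 9.89e-05). The output factors DBP, HLF and TEF were low in the high sums of both libraries. DBP had 27 and 76 UMIs in zero cells and 1 and 2 in high cells, so its level was 15.6 times as high in zero cells (exact interval 5.17 to 76.6). HLF had 31 and 45 UMIs in zero cells and 0 and 2 in high cells (17.2 times, 4.60 to 145), and TEF 24 and 37 against 0 and 4 (log2 ratio -2.67, adjusted p = 0.0198). The repressors PER1 (-1.79), PER3 (-1.65), CRY1 (-1.58) and PER2 (-1.31) and the activator ARNTL (-1.71) were lower too. PER1 had 65 and 283 UMIs in zero cells and 19 and 18 in high cells, so most of its fall came from library 11. CLOCK (0.14), RORA (-0.54), BHLHE40 (-0.27) and NPAS2 (1.17) were not called.

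TBX2 had 0 UMIs in high cells and 68 in zero cells (at least 10.3-fold lower), of which 1 cell held 57.1% in library 10 and 53.7% in library 11. CXCR3, a chemokine receptor named after its values were seen, had 2 and 2 UMIs in zero cells and 19 and 17 in high cells (log2 ratio 4.34).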
